A study of Rattus norvegicus with 4 samples.

Results

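Polo-like kinases and a small group of genes tied to the p53 and growth-arrest response were examined in surface colonocytes of the rat distal colon, after treatment with aldosterone or vehicle. The group held 10 genes: the polo-like kinases Plk1, Plk2, Plk3 and Plk4, the cell cycle inhibitor Cdkn1a, the p53 antagonist Mdm2, the growth-arrest genes Gadd45a, Gadd45b and Gadd45g, and the repair nuclease gene Dclre1b. All 10 had 1 row with a single gene symbol, out of 13215 genes so named. The group was chosen from the measured difference between aldosterone and vehicle: Plk2, Plk3 and Dclre1b had differences already known in these arrays, and relatives were added by family and function. The differences of the 10 genes are therefore given as a description with no test. Of the 10, 8 had a mean over the 4 arrays of 4 or more on the log2 scale, while Plk1 lay under 4 and Plk4 near the floor of the arrays.

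The cells came from 12-week-old Wistar rats whose adrenal glands had been removed 4 days earlier, and which drank 0.9% NaCl. In 2 rats aldosterone, the adrenal steroid that raises sodium absorption in the colon, was injected at 50 µg/100 g body weight and infused by minipump at 10 µg/kg per hour for 2 h. The inverted colons of these rats were then shaken for 40 min with 100 nM aldosterone. The 2 vehicle rats had the injection, the pump and the shaking without the hormone, so that adrenalectomy, salt intake and ex vivo shaking were common to both groups. Each rat gave 1 Affymetrix exon array, and levels are log2 values.

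Polo-like kinases are serine/threonine kinases that share a polo-box domain. Plk1 drives entry into and passage through mitosis, and Plk4 starts centriole duplication. Plk2 and Plk3 are early response genes, first described as serum-inducible and growth factor-inducible kinases, and are also induced by cellular stress. The transcription factor p53 switches on Cdkn1a, which encodes the cyclin-dependent kinase inhibitor p21, and Mdm2, the ubiquitin ligase that returns p53 to a low level. GADD45 proteins bind and activate the kinase MAP3K4 above p38 and JNK, and their genes respond to stress with or without p53. Dclre1b encodes Apollo, a nuclease of crosslink repair and telomere ends. In normal colon, Cdkn1a is highest in the non-dividing cells near the surface.

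The surface colonocyte markers and the corticosteroid genes matched the labelled cell type and treatment. The 7 surface colonocyte markers with a row (of 9 listed, among them Krt20, Slc26a3 and Aqp8) lay between 9.38 and 12.75 on every array. Of 19 genes of mitosis and S phase with a row, 18 had a mean under 4. So did all 6 genes of stroma, muscle and endothelium and 6 of 7 leukocyte genes, the exception being Cd14. Only 4815 of all 19403 rows had a mean of 4 or more, so these counts alone say little of the cell types present. Of the 7 surface markers, 4 (57.1%) were apart in the higher direction with aldosterone and 0 in the lower, beside 16.7% and 11.1% of all rows. With arrays centred on their medians 1 was higher (14.3%, beside 9.61% of all rows), Slc26a3. Some markers of other cells also separated the groups and others did not. Summed log2 levels of 4 crypt stem and progenitor markers were 8.98 and 9.72 in vehicle rats and 10.60 and 10.31 in aldosterone rats, with a mean under 4 for each gene. Summed levels of 4 goblet markers were 25.93 and 24.96 against 25.44 and 29.84, and overlapped. Within that list Zg16, a goblet lectin gene, stood at 5.14 and 4.45 against 6.39 and 8.06, and Spink4 near the floor was slightly higher, while Tff3 (11.12 and 10.74 against 9.44 and 11.30) and Agr2 overlapped. The part of these cells in the results was not tested. In such bulk samples, fewer cells of a type and less RNA per cell cannot be told apart. Of 5 genes known to respond to corticosteroids, all were higher in both aldosterone rats, by 1.35 (Per1) to 5.09 (Scnn1g) on the log2 scale. None of these 5 had an adjusted p below 0.05 in limma with a constant prior variance, all 5 had an unadjusted p below 0.05, and 4 passed with a prior that varied with intensity. Over all rows these shares were 0%, 4.53% and 0.108%, in the same order.

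Plk2 had the largest difference in the group and was lower with aldosterone. Its level was 8.73 and 9.17 in vehicle rats, against 7.28 and 7.07 after aldosterone. Both aldosterone rats lay below both vehicle rats, and the gap of 1.45 between the nearest 2 rats exceeded the difference between rats of either group. The group means of 8.95 ± 0.31 and 7.17 ± 0.15 (SD, n = 2) differed by -1.77 ± 0.19 (SE), a level 3.42-fold lower with aldosterone. With any 1 array left out the difference stayed between -1.99 and -1.55. Of the 4815 rows whose mean reached 4, 0.644% had a difference of this size or larger in either direction. As the gene was chosen with this difference known, the share describes its rank and is no evidence.

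Plk3 was also lower in both aldosterone rats, but by unequal amounts. The vehicle rats stood at 7.58 and 7.65, close to each other, and the aldosterone rats at 7.29 and 6.14. The groups did not overlap, with a gap of 0.30. The difference of -0.90 ± 0.41 (SE) had a 95% interval from -2.04 to 0.23. It rested largely on aldosterone rat 2: without that array it was -0.33, and without aldosterone rat 1 it was -1.48. Within an array, the log2 value of Plk2 exceeded that of Plk3 by 1.15 and 1.52 in vehicle rats and by -0.0065 and 0.93 in aldosterone rats. The probes of the 2 genes are not on a common scale, so only the shift of -0.87 between groups can be read. The groups did not overlap in it, Plk2 being lower relative to Plk3 in both aldosterone rats.

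Plk1 and Plk4, the mitotic and centriolar members of the family, did not separate the groups. Plk1 stood at 2.61 and 3.18 in vehicle rats and 3.36 and 3.04 in aldosterone rats, and the groups overlapped. Plk4 stood between 1.78 and 1.83 on all 4 arrays. Its mean was below the 25th percentile of all rows (1.89), at which level a row gives no measure of change. Its difference of 0.018 became -0.040 with arrays centred on their medians and -0.0076 after quantile normalization.

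**Figure D1:**
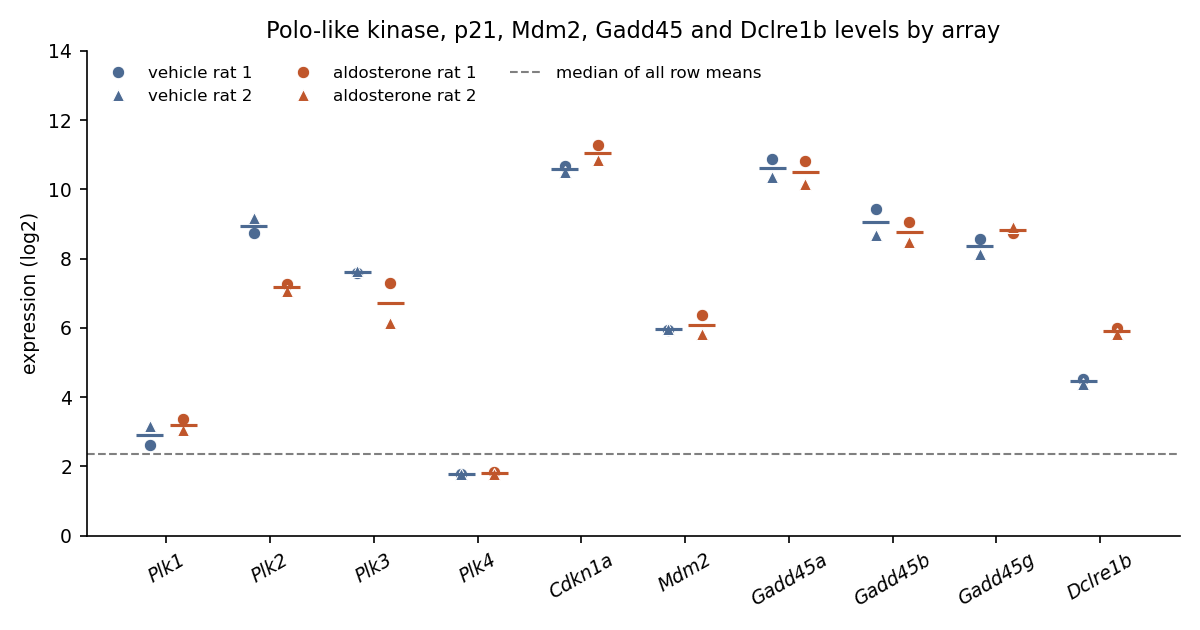
Expression level (log2, vertical axis) of the 10 genes in each rat; circles are rat 1 and triangles rat 2 of a group, blue is vehicle, orange is aldosterone, and short lines are group means of 2 rats. Both aldosterone rats lie below both vehicle rats for Plk2 and Plk3 and above them for Cdkn1a, Gadd45g and Dclre1b, while Plk4 lies under the dashed median of all row means (2.35) on every array.

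The promoters of the polo-like kinases are shown because the 2 early response members were lower together and the cyclic AMP response element (CRE), a binding sequence of CREB and ATF factors, was found in both in a full or variant form. The windows run from 250 bases before to 50 bases after 1 annotated start per gene in RefSeq (GRCr8), and windows were found for 10 of 10 genes. Capitals mark matches on either strand to the motifs searched. The Plk2 window is chr2:43702286-43702585 on the plus strand, and the Plk3 window is chr5:135848851-135849150 on the minus strand.
Plk2: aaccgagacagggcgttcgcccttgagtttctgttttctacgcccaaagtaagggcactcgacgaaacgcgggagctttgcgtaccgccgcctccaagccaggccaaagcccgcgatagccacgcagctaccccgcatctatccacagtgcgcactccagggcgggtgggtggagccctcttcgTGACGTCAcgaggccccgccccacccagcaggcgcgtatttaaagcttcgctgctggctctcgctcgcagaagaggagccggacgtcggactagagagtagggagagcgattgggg
Plk3: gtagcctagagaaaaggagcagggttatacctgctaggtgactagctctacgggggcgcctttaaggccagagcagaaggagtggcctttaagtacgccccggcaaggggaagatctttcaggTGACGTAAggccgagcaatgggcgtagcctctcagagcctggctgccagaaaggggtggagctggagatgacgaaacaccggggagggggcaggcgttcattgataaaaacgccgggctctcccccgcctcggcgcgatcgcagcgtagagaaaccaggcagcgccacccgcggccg
The full element TGACGTCA ends 59 bases before the start of Plk2 and was present in 1.83% of 33469 windows. Plk3 held TGACGTAA, which ends 120 bases before its start. A match with any base at position 7 (TGACGTNA, which includes the full element and was added after the sequences were seen) was present in 3.25% of windows and in 3 of the 10 here, Plk2, Plk3 and Plk4. Its match in Plk3 was fixed by that choice, so nothing is read from the count. Both forms hold the letters CG. The windows of Plk2, Plk3 and Plk4 held 30, 22 and 26 such pairs, beside a median of 7 over all windows, so the shares of all windows are no like background. The full element of Plk4 ends 20 bases before its start, and that gene lay at the floor of the arrays. Neither AP-1 (TGANTCA, 7.33% of windows) nor a CArG box, the serum response element (1.64%), was found in any of the 10 windows. The half-site of the glucocorticoid response element (TGTTCT, 20.7% of windows), which aldosterone-bound receptors also recognise, was found in the window of Plk1 only, and a TATA box (TATAAA, 14.2%) in that of Gadd45g only. No match overlapped another apart from the 2 forms of the CRE. These are matches of letters in short windows, not sites shown to be bound.

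Cdkn1a was higher in both aldosterone rats by a small amount. It stood at 10.67 and 10.50 in vehicle rats and at 11.27 and 10.83 in aldosterone rats. The groups were 0.16 apart, less than the 0.44 between the aldosterone rats. The difference was 0.47 ± 0.19 (SE), or 1.38-fold, with a 95% interval from -0.05 to 0.99. With arrays centred on their medians the groups overlapped. Mdm2, a further p53 target, stood at 5.95 and 5.96 in vehicle rats and at 6.36 and 5.82 in aldosterone rats, on either side of the vehicle values. Its difference of 0.13 turned to -0.14 without aldosterone rat 1.

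The Cdkn1a window is given because it held the p53 half-site, the ten-letter unit of which p53 elements hold a pair. It is chr20:7150682-7150981 on the plus strand.
Cdkn1a: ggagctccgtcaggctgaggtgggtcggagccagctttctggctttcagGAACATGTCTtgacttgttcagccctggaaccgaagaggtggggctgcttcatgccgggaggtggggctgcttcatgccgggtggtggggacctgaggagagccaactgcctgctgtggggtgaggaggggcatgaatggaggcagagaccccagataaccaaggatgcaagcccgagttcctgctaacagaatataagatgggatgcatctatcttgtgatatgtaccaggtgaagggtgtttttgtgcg
This half-site, GAACATGTCT, ends 192 bases before the start used. Only exact matches were marked. The bases directly after it, tgacttgttc, come close to a second unit without matching every letter, so a full element is not excluded. Half-sites of this form were present in 7.98% of all windows and in 2 of the 10, the second being GGGCTAGCCC in Gadd45a. The window of Mdm2 held none, which says only that these letters are absent from this stretch. GC content was 56.7% in the Cdkn1a window and reached 66.0% in that of Mdm2, and all 10 windows lay above the median of 51.7% over all windows.

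The 3 Gadd45 genes did not move as a group. Gadd45g was higher in both aldosterone rats, at 8.73 and 8.91 against 8.57 and 8.13 in vehicle rats. The difference was 0.47 ± 0.19 (SE), or 1.38-fold, with a 95% interval from -0.06 to 1.00 and a gap of 0.15 between groups. Gadd45a stood at 10.86 and 10.37 in vehicle rats and at 10.83 and 10.15 in aldosterone rats. Gadd45b stood at 9.44 and 8.68 against 9.04 and 8.46. For both genes the groups overlapped, and the rats of a group differed by more than the groups did. In both groups rat 1 was above rat 2, by 0.49 and 0.69 for Gadd45a and by 0.76 and 0.58 for Gadd45b. The differences between groups, -0.12 for Gadd45a and -0.30 for Gadd45b, changed sign when vehicle rat 1 was left out (0.12 and 0.077), and that of Gadd45a also without aldosterone rat 2 (0.22). Within arrays, the difference of Gadd45a from Gadd45b had overlapping groups. That of Gadd45b from Gadd45g was lower in both aldosterone rats, at 0.32 and -0.44 against 0.87 and 0.55.

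**Figure D2:**
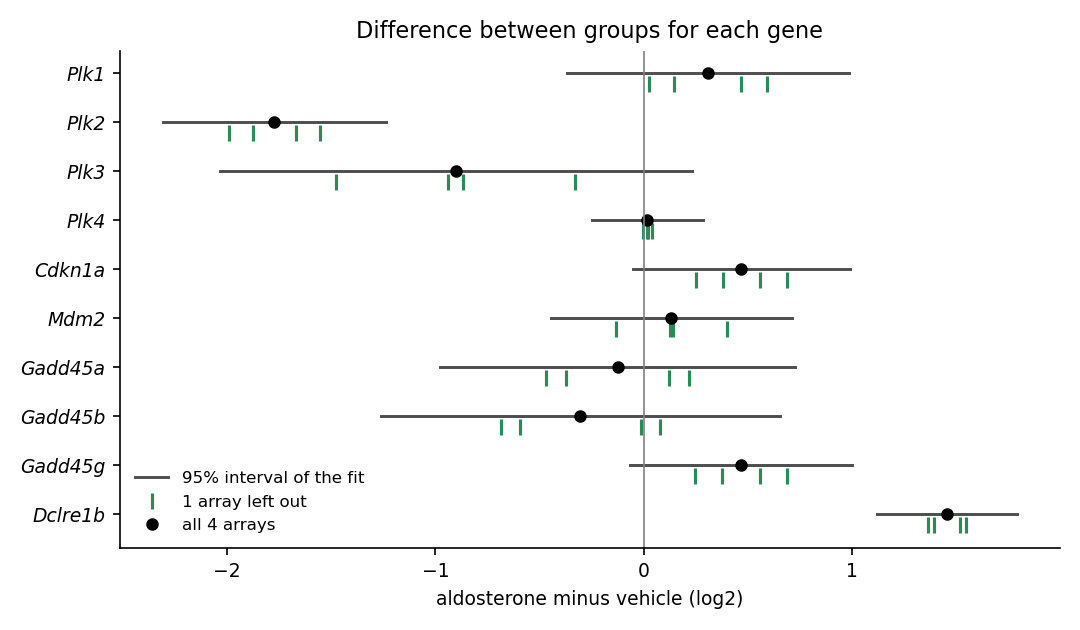
Aldosterone minus vehicle (log2, horizontal axis) for each gene: the point is the difference of 2 against 2 rats, the line its 95% interval in limma, and green ticks the difference with 1 array left out. The points run from -1.77 for Plk2 to 1.46 for Dclre1b, the genes were chosen with these differences known, and the widest spread of the green ticks around a point is that of Plk3 (-1.48 to -0.33).

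Dclre1b was higher with aldosterone, with little spread in either group. It stood at 4.52 and 4.39 in vehicle rats and at 6.0 and 5.82 in aldosterone rats. The gap of 1.30 between groups was far wider than the 0.13 and 0.18 between rats of a group. The difference was 1.46 ± 0.12 (SE), or 2.74-fold, and ranged from 1.37 to 1.55 with any 1 array left out. A difference of this size or larger, in either direction, was found in 1.10% of the rows whose mean reached 4. This share too only describes a gene chosen with its difference known.

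The Dclre1b window is shown because it is shared with another gene. Dclre1b and Ap4b1, which encodes a subunit of the AP-4 adaptor complex of membrane traffic, start close together and run in opposite directions, so that 244 of the 300 bases belong to both windows. The Dclre1b window is chr2:194006791-194007090 on the minus strand. It held none of the motifs searched, and hence no capitals.
Dclre1b: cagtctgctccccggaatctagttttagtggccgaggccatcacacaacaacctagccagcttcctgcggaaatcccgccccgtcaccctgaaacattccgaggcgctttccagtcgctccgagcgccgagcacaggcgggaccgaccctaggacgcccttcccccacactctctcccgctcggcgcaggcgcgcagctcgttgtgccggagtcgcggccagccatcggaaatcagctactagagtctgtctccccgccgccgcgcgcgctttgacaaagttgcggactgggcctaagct
Ap4b1 was also higher with aldosterone, at 4.63 and 4.83 against 4.05 and 4.02, a difference of 0.69 (95% interval 0.37 to 1.02). Hipk1, a kinase gene whose relatives act on p53 and which neighbours Dclre1b on the other side, stood at 8.12 and 7.83 against 7.56 and 7.31 (difference 0.54, interval 0.080 to 0.99). Neither passed the threshold in limma adjusted over all rows (adjusted p = 0.711 and 1.00), which 0 of all 19403 rows passed. The difference of Hipk1 was 0.39 without aldosterone rat 1 and 0.68 without aldosterone rat 2. Of 12 protein-coding genes nearest to Dclre1b, 6 on each side, 10 had a row and 5 of these a mean of 4 or more. Of these 5, Ap4b1 and Hipk1 stood higher, while Trim33, Rsbn1 and Magi3 overlapped between groups. Over all rows of that level 13.4% were apart in the higher direction and 18.7% in the lower. Of the 5 with a mean under 4, Olfml3 was apart by a small amount in the higher direction and Phtf1 in the lower. The median difference of the 10 was 0.047. Around the 10 genes as a whole, 15 of 20 flanking genes had a row. Besides Ap4b1 and Hipk1, only Srsf3, a splicing factor gene next to Cdkn1a, separated the groups, at 6.72 and 6.69 against 7.37 and 6.93 (difference -0.44, or -0.23 without vehicle rat 1). That is 2 of 15 apart in the higher direction and 1 in the lower, beside 16.7% and 11.1% of all rows. These neighbours were looked up after the values of Dclre1b had been seen, and nothing is read from their counts.

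**Figure D3:**
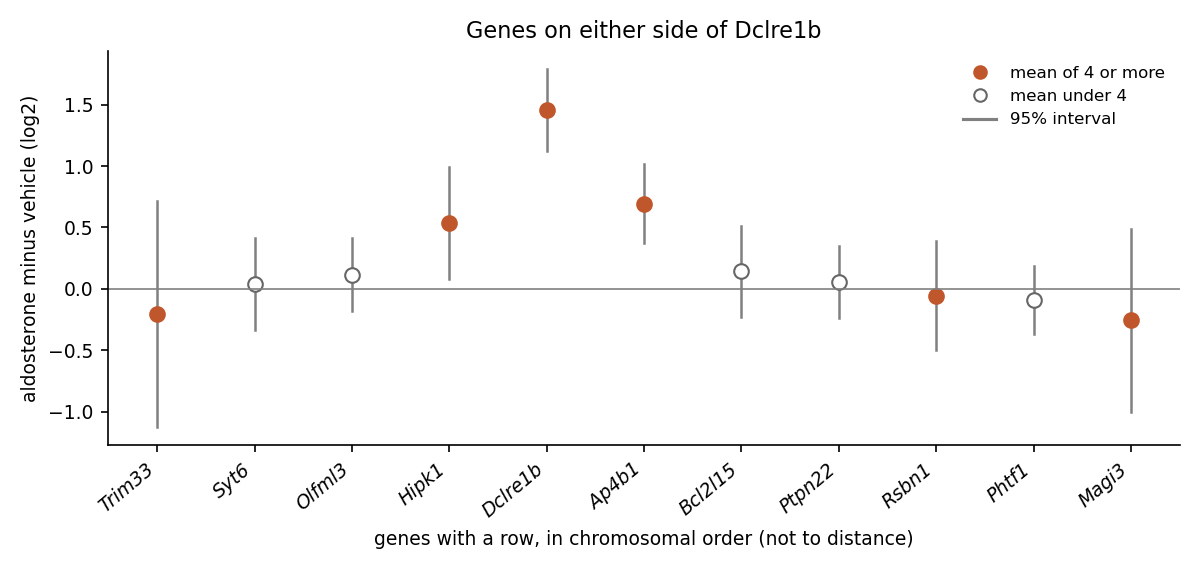
Aldosterone minus vehicle (log2, vertical axis) with 95% intervals for Dclre1b and the 10 nearby genes with a row, in chromosomal order and not to distance; filled points have a mean of 4 or more. Dclre1b has a difference of 1.46, its direct neighbours Ap4b1 and Hipk1 have 0.69 and 0.54, and the intervals of the other 8 genes include 0.

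Read against all rows, 5 of the 10 genes had groups that did not overlap, Cdkn1a, Gadd45g and Dclre1b being higher and Plk2 and Plk3 lower. Over all 19403 rows 16.7% were higher and 11.1% lower in this sense, and over those whose mean reached 4, 13.4% and 18.7%. As the group was chosen from this contrast, nothing is read from its count. Centring arrays on their medians turned the shares of all rows into 9.61% higher and 17.2% lower. The median difference of the 10 genes was 0.075 against 0.024 over all rows. In limma with a constant prior variance, 0 of 19403 rows (0%) had an adjusted p below 0.05, while 879 (4.53%) had an unadjusted p below 0.05. Letting the prior variance vary with intensity gave 21 calls (0.108%). The constant prior fitted without the rows of mean under 4 gave 12 calls (0.249%). No p is read for the 10 genes, whose choice used these values. With 2 rats against 2, an exact permutation test of a single gene cannot give a p below 0.333.

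The other genes of the p53 response were divided. None passed an adjusted p of 0.05 in limma, but neither did any of all 19403 rows, so this says nothing of these genes. Of 30 p53 targets listed besides the group, 15 had a row and 8 a mean of 4 or more. Groups were apart in 1 gene in the higher direction (6.67%) and in 4 in the lower (26.7%), beside 16.7% and 11.1% of all rows, and the list median was 0.020. Gdf15, a stress-induced cytokine of the TGF-beta family, stood at 7.06 and 6.59 in vehicle rats and at 5.80 and 5.02 in aldosterone rats. Apaf1, which assembles the apoptosome, stood at 6.68 and 6.12 against 5.48 and 5.04. The death receptor gene Fas stood at 4.66 and 4.28 against 3.58 and 3.78. These 3 were lower in both aldosterone rats, with adjusted p-values of 0.853, 0.853 and 0.837 in limma, and the fourth, Bax, had a mean under 4. Ddit4, an inhibitor of mTORC1 that glucocorticoids also induce, was the one apart in the higher direction, at 11.48 and 11.41 against 11.30 and 10.76. After centring, 0 were higher and 5 lower (33.3%), beside 9.61% and 17.2% of all rows. Of 16 genes listed for the control of p53, 13 had a row, with 0 apart in either direction in the values as deposited and a median of 0.032. After centring 2 were apart in the lower direction (15.4%, beside 17.2% of all rows). After quantile normalization 2 were higher (15.4%) and 1 lower (7.69%), beside 17.2% and 15.4% of all rows.

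Checkpoint and repair genes mostly had a mean under 4, as most rows did: only 4815 of all 19403 rows had a mean of 4 or more. Of 15 DNA damage checkpoint genes with a row, 12 had a mean under 4. Groups were apart in 2 in the higher direction (13.3%) and 0 in the lower, beside 16.7% and 11.1% of all rows. After centring 1 was higher (6.67%) and 0 lower, beside 9.61% and 17.2% of all rows. Wee1, the kinase that holds CDK1 inactive before mitosis, stood at 6.09 and 5.66 in aldosterone rats against 4.86 and 4.79, a difference of 1.05 (95% interval 0.56 to 1.54, adjusted p = 0.711 in limma). Of 16 genes of crosslink repair and the telomere-capping shelterin complex, the surroundings of Apollo, 12 had a mean under 4. Groups were apart in 2 genes in the higher direction (12.5%) and 1 in the lower (6.25%), beside 16.7% and 11.1% of all rows. With a mean of 4 or more, only Ercc1, a subunit of a repair nuclease, was among them, higher by 0.13 (interval -0.18 to 0.45), or 0.043 without aldosterone rat 2. After centring, 0 were apart in the higher direction and 1 in the lower (6.25%), beside 9.61% and 17.2% of all rows. The list median was 0.0040, beside 1.46 for Dclre1b, and 8 of the 24 genes listed were not among the rows named here. Centring moved the median of all rows from 0.024 to -0.034, and list medians as close to 0 as these carry no direction.

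Genes that Plk1 and Plk4 work with mostly had a mean under 4 as well. In the 19 genes of mitosis and S phase the median difference was 0.11, with 1 mean of 4 or more, that of Pcna. Groups were apart in 4 in the higher direction (21.1%) and 0 in the lower, beside 16.7% and 11.1% of all rows. After centring 2 were higher (10.5%) and 1 lower (5.26%), beside 9.61% and 17.2% of all rows. All 7 centriole genes had a mean under 3, beside 65.0% of all rows. Among them 0 were apart, beside 16.7% higher and 11.1% lower over all rows. Of 9 genes for G1 cyclins, their kinases and inhibitors, Cdk2, the partner of cyclin E, stood lower at 3.79 and 3.85 against 5.0 and 4.29, by -0.83, or -0.48 without vehicle rat 1. The other CDK inhibitor genes of that list had overlapping groups where the mean was 4 or more: Cdkn1b, a relative of Cdkn1a, differed by -0.13 and Cdkn2b by 0.23.

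In the p38 and JNK cascade, 1 gene was higher and 3 were lower. Map3k5, which encodes ASK1, a stress kinase at the same tier as MAP3K4, stood at 5.23 and 5.03 in aldosterone rats against 4.02 and 3.51, a difference of 1.36 (95% interval 0.78 to 1.95, adjusted p = 0.711 in limma). Mapk9, which encodes JNK2, was lower at 7.69 and 7.17 against 8.46 and 7.99, and Mapk14, which encodes p38 alpha, at 8.26 and 7.98 against 9.07 and 8.36. Map3k4, the direct partner of GADD45 proteins, overlapped at 3.87 and 3.81 against 4.05 and 3.70. The difference of Mapk14 was -0.24 without vehicle rat 1. Of the 12 measured genes, 8.33% were apart in the higher direction and 25% in the lower, beside 16.7% and 11.1% of all rows, with a median of -0.10. With arrays centred on their medians Mapk9 was apart in the lower direction and Mapk14 and Mapk13 overlapped.

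Plk2 and Plk3 are induced as immediate early genes are, and the other genes of that class were mostly lower with aldosterone. Of 21 genes with a row, 12 (57.1%) had both aldosterone rats below both vehicle rats and 0 were higher, against 11.1% lower and 16.7% higher over all rows. The median was -0.51, against 0.024 over all rows. Centring gave 14 lower (66.7%, beside 17.2% of all rows) and quantile normalization 17 (81.0%, beside 15.4%). This direction was known in these arrays beforehand. The largest differences with groups apart were those of the orphan receptor genes Nr4a2 (-1.61) and Nr4a1 (-1.39) and of Egr2 (-1.32). Egr2 rested largely on aldosterone rat 2, being -0.54 without that array and -2.11 without aldosterone rat 1. In limma none of the 21 passed an adjusted p of 0.05, and neither did any of all 19403 rows. An unadjusted p below 0.05 was found in 7 of the 21, beside 4.53% of all rows.

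**Figure D4:**
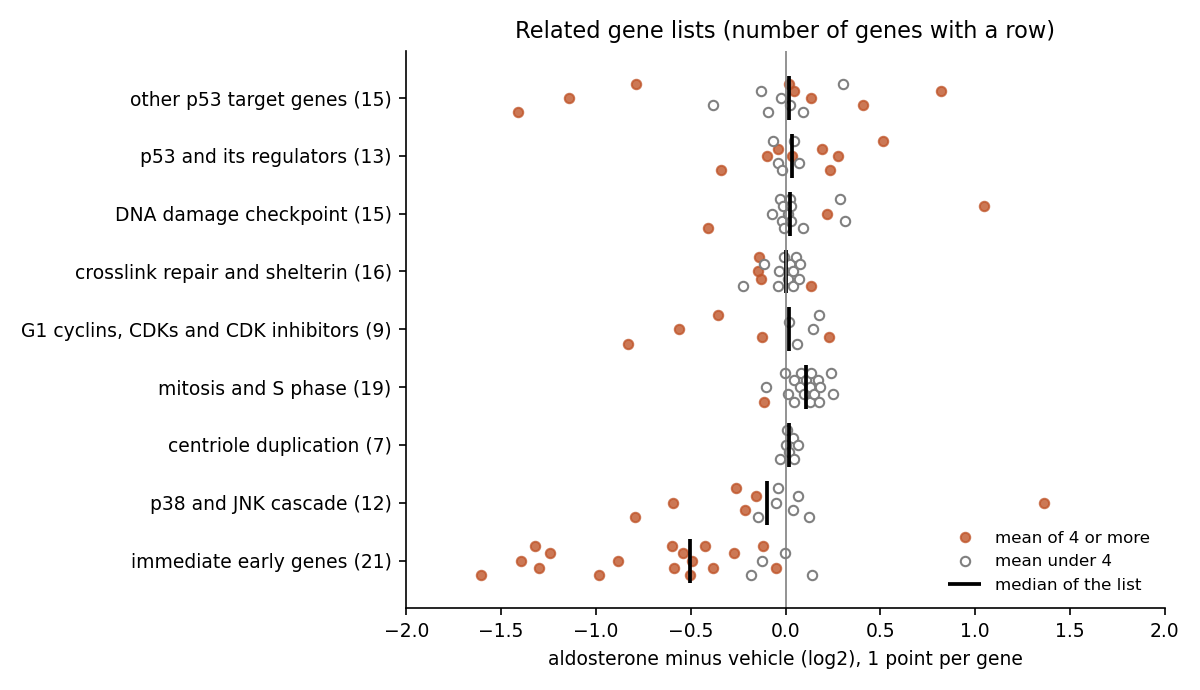
Aldosterone minus vehicle (log2, horizontal axis) for every gene with a row in 9 related lists; filled points have a mean of 4 or more, open points a mean under 4, and the black bar is the list median. The immediate early genes have a median of -0.51, and the medians of the other 8 lists lie between -0.10 and 0.11.

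Genes with the pattern closest to Plk2, Plk3 and Dclre1b were found among 4131 other genes with a mean of 4 or more, by the Euclidean distance between their 4 log2 values after each gene was centred on its mean. Closest to Plk2 were B4galt6, a glycosphingolipid galactosyltransferase gene (distance 0.26), Nr4a2 (0.27), the histamine receptor gene Hrh1 (0.30) and Zfand2a, a gene induced by proteotoxic stress (0.51). Hrh1 stood at 7.86 and 8.11 in vehicle rats and 6.59 and 6.04 in aldosterone rats. Closest to Plk3 were the ephrin receptor gene Epha2 (0.18), Plet1 (0.18), the epithelial kinase gene Ptk6 (0.19) and the endothelin gene Edn1 (0.22), in each of which aldosterone rat 2 was the lowest of the 4. Edn1 stood at 10.16 and 10.10 against 9.75 and 8.86. Closest to Dclre1b were the bile acid receptor gene Nr1h4 (0.15), Tfcp2l1, a transcription factor gene (0.21), the glutamine transporter gene Slc38a1 (0.23) and the aldo-keto reductase gene Akr1c14 (0.27). Tfcp2l1 stood at 6.93 and 6.60 in aldosterone rats against 5.24 and 5.38. With 4 arrays, many genes share any pattern, and closeness says nothing of shared control.

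**Figure D5:**
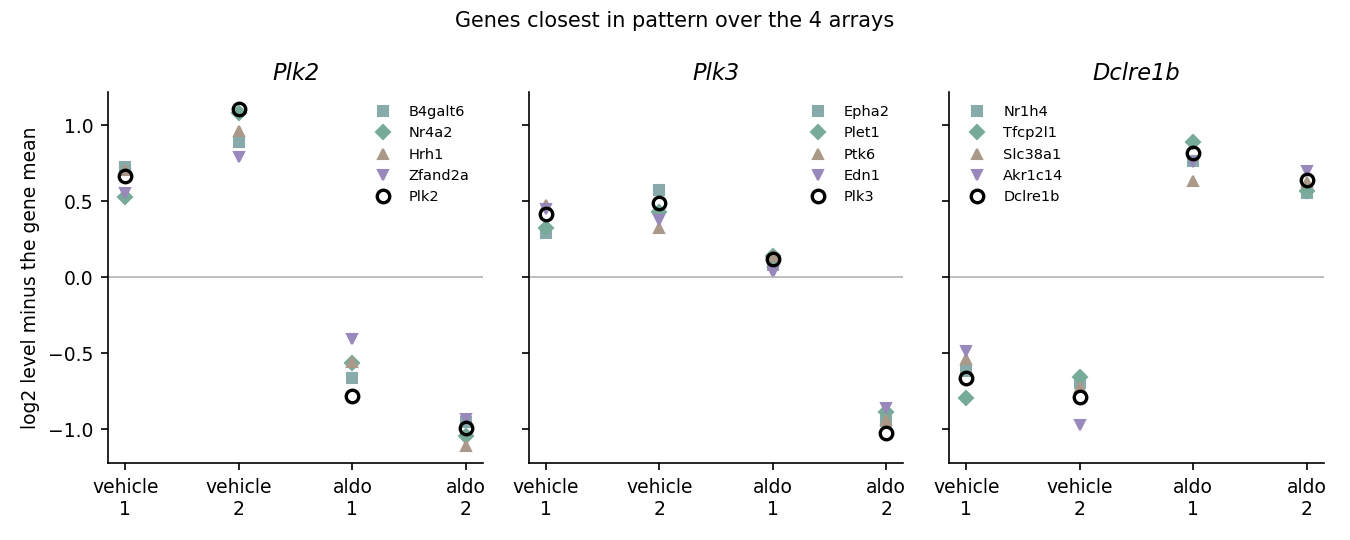
Log2 level minus the mean of each gene (vertical axis) on the 4 arrays for Plk2, Plk3 and Dclre1b (open black circles) and the 4 genes closest to each (coloured marks). The genes near Plk3 share a low value in aldosterone rat 2, at which Plk3 was 6.14. The groups did not overlap in any gene shown, which follows from the choice of genes by closeness to Plk2, Plk3 and Dclre1b.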

How the data were processed

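RNA of 4 rats was measured on 1 exon array each. The deposited log2 values were used as they stand. RMA, Affymetrix Expression Console and Partek are named in the submitters' processing notes, with no version or order. RMA subtracts background, aligns the arrays and summarises probes on a log2 scale, and the log2 scale was read from the range of the values. The genome build of the array is not given in the sources used here. Of 19403 rows, 13327 had 1 gene symbol, 620 several and 5456 none here. The row with the highest mean stood for a gene.

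Aldosterone was compared with vehicle with limma 3.58.1 in R 4.3.3 over all rows (treatment as the only term, constant prior variance, two-sided, Benjamini-Hochberg adjustment, threshold 0.05). The fit was tested on simulated data, in which the spreads of the rows were shuffled and known changes were put into rows with a mean of 4 or more. It recovered 26.4% of changes of 1 on the log2 scale, 63.2% of changes of 2, 86% of changes of 4 and 97.2% of changes of 8. Most changes of 1 were thus missed. Per the labels the rats of a group are biological replicates, and their number limits the precision. Summaries used Python 3.11.15 with pandas 2.3.3, and plots matplotlib 3.10.9.

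The genes and lists were chosen with earlier results of these data known. Named were the 10 genes, up to 3 genes per list with the largest difference among those with a mean of 4 or more and groups apart, and the 4 genes nearest in pattern to Plk2, Plk3 and Dclre1b. Genes named outside this rule were chosen after their values were seen: Bax, Ddit4, Pcna, Cdkn1b, Cdkn2b, Map3k4, Mapk13, the single marker genes and the chromosomal neighbours. The variant CRE was also added after the sequences were seen. Lists were described by counts and medians, with no set test. Alternatives were quantile normalization, centring, filters on low rows, an intensity trend, a replicate block, and leaving out each array.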

Additional observations from a re-analysis of the deposited data

How the results depend on the processing

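Plk2, Plk3, Cdkn1a, Gadd45g, Dclre1b and Plk1 kept their direction under each of the alternatives run. Leaving out 1 array at a time gave -1.99 to -1.55 for Plk2, -1.48 to -0.33 for Plk3, 0.25 to 0.69 for Cdkn1a, 0.24 to 0.69 for Gadd45g, 0.025 to 0.59 for Plk1 and 1.37 to 1.55 for Dclre1b. The sign changed in Plk4 (-0.0034 to 0.039), Mdm2 (-0.14 to 0.40), Gadd45a (-0.47 to 0.22) and Gadd45b (-0.69 to 0.077), and in Plk4 also with centring (-0.040) and quantile normalization (-0.0076). The median of the 10 genes ran from -0.069 to 0.30. With any 1 array left out, 0 rows passed.

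An intensity trend called 21 rows, 1 of them among the 10 genes, from which nothing is read as their choice used these values, and 12 rows passed when rows with a mean under 4 were left out. With the replicate number as a block 0 rows and 0 of the 10 genes passed. The labels number the replicates and state no pairing of rats. The differences of replicate 1 from 2 in both groups correlated at r = 0.15 across rows. As rows are not independent, this cannot settle whether the numbers pair the rats.

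With centring, list medians were -0.038 (p53 targets), -0.036 (checkpoint), -0.054 (crosslink repair), -0.037 (G1) and -0.038 (centriole). Quantile normalization gave -0.015 for the checkpoint. Without rows of mean under 4 they were 0.22 (checkpoint, 3 genes), -0.13 (crosslink repair), -0.36 (G1), -0.11 (mitosis, 1 gene), -0.24 (p38 and JNK) and -0.59 (immediate early), with no gene left for the centriole. With 1 array left out they ran from -0.093 to 0.0080 (p53 targets), 0.0012 to 0.032 (checkpoint), -0.079 to 0.0094 (crosslink repair), -0.097 to 0.049 (G1), 0.012 to 0.16 (mitosis), -0.0031 to 0.12 (p53 regulators), -0.029 to 0.025 (centriole), -0.24 to -0.026 (p38 and JNK) and -0.54 to -0.39 (immediate early). Low levels limit what can be read for Plk1, Plk4 and their partners.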
